A study of Drosophila melanogaster with 3 samples.

Results

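Binding of the GFP-tagged CG13296 protein was examined at 6 genes, the GATA factor genes pnr, srp, grn, GATAd and GATAe and the cofactor gene ush, among 18164 annotated genes on the 6 main chromosome arms. The 6 genes were chosen by name with earlier results of these data known, and ush in particular from a binding site of very high signal, so every count of binding sites at them is a description. Their symbols were all found in the annotation. Sites were taken within 500 bp of each annotated transcription start site (TSS) and in the gene body plus 2 kb on each side, here called the locus. These loci held 19 of the 5724 sites that passed the study's irreproducible discovery rate (IDR) threshold, a measure of how well peak ranks agree between replicates.

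The study was chromatin immunoprecipitation sequencing (ChIP-seq) in whole Drosophila melanogaster embryos of both sexes, collected between 6 and 18 hours. All animals came from 1 transgenic line that stably expresses CG13296 fused at its C terminus to GFP, and the sources used here do not say which promoter drives the fusion. CG13296, named Prdm13 in the annotation, encodes a zinc-finger protein of the PR/SET domain family. There was 1 group with 3 biological replicates, sonicated to fragments of 200 to 800 bp, each compared by the authors with 1 shared control file, and with no second genotype, stage or treatment. One field of the labels calls the libraries input, against the assay title, the antibody field and the deposited derivation records, so the values below are those of libraries whose labels conflict. The number of reads was not given, so the depth and with it the limit of detection is unknown.

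GATA factors are zinc-finger proteins that bind DNA at short sites built around the letters GATA. In the fly, srp is needed for blood cells, fat body and endoderm, pnr for dorsal epidermis, heart and the dorsal bristle pattern, grn for several epidermal and neural structures, and GATAe for the midgut endoderm. ush encodes a zinc-finger protein of the Friend of GATA family, which binds Pnr and Srp and alters how they act on their targets.

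Most IDR summits in the 6 loci were in that of ush, the longest of the 6 genes. Its locus held 16 IDR summits, the positions of highest enrichment within peaks, while srp, GATAd and GATAe held 1 each and pnr and grn held 0. By gene, 4 of 6 loci held an IDR summit, against 40.1% of 13945 protein-coding genes. Long genes hold more summits, and the 6 loci span 9452 to 68341 bp, so the shares in this paragraph are not matched for length. Without the flanks, 3 of 6 genes held an IDR summit. The share of all protein-coding genes on that measure is not given here, and 40.1% is not its background. An IDR summit within 500 bp of a TSS was found at 2 of 6 genes, ush and GATAe, against 23.3% of protein-coding genes. In the relaxed list of 30000 peaks called on the pooled replicates, 5 of 6 loci held a summit, against 67.6% of protein-coding genes, and 4 of 6 genes had one at a TSS, against 49.3%. The locus without a summit in either list was that of pnr.

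**Figure D1:**
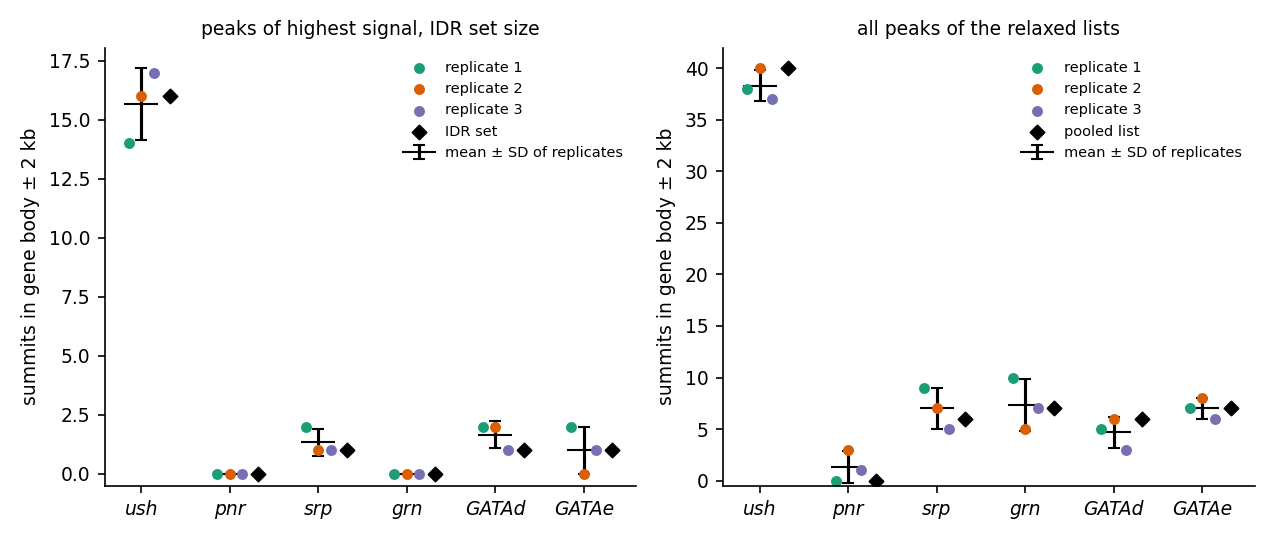
Number of summits in the locus of each gene (vertical axis, gene body plus 2 kb on each side), for the IDR set and as many top peaks of each replicate, 5724 (left) and for all 30000 peaks of each relaxed list (right). Coloured points are the replicates, black diamonds the IDR set or the pooled list, and black bars the mean and SD of 3 replicates. ush holds 14 to 17 summits in the left panel, and no other gene holds more than 2.

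The sequences around leading summits of ush, GATAd and srp are shown because results below turn on these sites. Each is 201 bases of the plus strand of release 6 of the genome, which has the dm6 coordinates of the deposited peaks, with the summit at its centre. Capitals mark a GATA site, defined as the letters GATA with A or T before them and A or G after them, on either strand. The first 3 are from ush.
ush rank 3, chr2L:480956-481156: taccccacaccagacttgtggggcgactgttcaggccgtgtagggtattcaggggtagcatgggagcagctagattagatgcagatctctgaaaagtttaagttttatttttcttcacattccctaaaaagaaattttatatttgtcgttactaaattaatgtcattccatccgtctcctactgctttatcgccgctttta
ush rank 179, chr2L:479960-480160: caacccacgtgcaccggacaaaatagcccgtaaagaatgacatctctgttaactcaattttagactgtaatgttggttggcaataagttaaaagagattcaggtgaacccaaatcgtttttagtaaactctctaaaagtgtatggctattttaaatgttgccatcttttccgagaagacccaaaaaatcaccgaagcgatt
ush rank 382, chr2L:485779-485979: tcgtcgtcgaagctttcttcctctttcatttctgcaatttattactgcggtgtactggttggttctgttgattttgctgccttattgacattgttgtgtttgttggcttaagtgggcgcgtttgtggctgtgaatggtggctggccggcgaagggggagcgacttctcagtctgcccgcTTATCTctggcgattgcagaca
GATAd rank 550, chr2L:10335034-10335234: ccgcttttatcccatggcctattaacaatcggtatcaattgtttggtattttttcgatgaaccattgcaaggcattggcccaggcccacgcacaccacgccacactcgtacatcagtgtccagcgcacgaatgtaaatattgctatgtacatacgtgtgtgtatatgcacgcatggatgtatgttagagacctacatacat
srp rank 1858, chr3R:16005179-16005379: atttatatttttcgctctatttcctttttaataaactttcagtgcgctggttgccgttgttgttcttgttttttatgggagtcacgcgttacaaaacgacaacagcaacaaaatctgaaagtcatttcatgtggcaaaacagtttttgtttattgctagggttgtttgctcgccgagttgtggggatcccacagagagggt

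The window of the ush summit of rank 382 held 1 GATA site, 81 bp to the right of the summit. The other 4 windows held no such site, which says only that these letters are not within 100 bp of those summits. In none of the 5 windows did the first base, the summit or the last base lie in an annotated untranslated region, and the other bases were not checked.

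ush (FBgn0003963) lies on 2L from 476220 to 540560 on the plus strand of dm6 and spans 64341 bp. The annotation gives it 4 TSSs, at 476220, 490835, 523466 and 523736. The short gene cbt, encoding a zinc-finger transcription factor, lies within the first ush intron on the opposite strand, from 476446 to 479688. The strongest ush summit, at 481056 in the interval 480807 to 481360, lay in this intron, 4836 bp downstream of the first ush TSS and at -1368 bp from the cbt TSS. It ranked 3 of 5724 by signal in the IDR set, with the authors' signal value of 5616. In replicates 1, 2 and 3 the summit ranked 3, 2 and 2 (2.33 ± 0.577, SD, n = 3). Because ush was chosen for this summit, its higher rank than any other summit in the 6 loci, in every replicate, is only a description.

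Beside it, a summit at 480060 (479872 to 480267) ranked 179 in the IDR set and 201, 188 and 158 in the replicates. It lay at -372 bp from the cbt TSS, so it is both a promoter summit of cbt and an intronic summit of ush, and ChIP-seq cannot assign it to either gene. At 478980 and 479182, 2 weaker summits of ranks 1382 and 3012 fell in an exon of cbt, 708 and 506 bp downstream of its TSS. They shared a single replicate 1 peak of rank 1301, so they are not independent of each other. Leaving out the 3 summits within cbt or at its TSS, the ush locus held 13 IDR summits.

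From 478980 to 490686, 11 IDR summits lay within 11706 bp, all upstream of the second ush TSS. Among them, the summit at 485879 (485717 to 486047) ranked 382, and 283, 493 and 468 in the replicates. The summit at 481950 ranked 698, and 435, 727 and 1009 in the replicates. These 2 intronic sites stayed within the first 1009 peaks of every replicate. The others of this stretch were weaker: 484388 at rank 2342, 488335 at 3326, 482710 at 3669 and 488544 at 4204, each inside the 5724 peaks of highest signal of every replicate. The summits at 488335 and 488544 had the same matching peak in replicates 1 and 2.

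The last summit of the first stretch, at 490686, lay at -149 bp from the second ush TSS, which is shared with the start of the non-coding gene lncRNA:CR46258. It fell in an exon of a longer ush transcript and ranked 2310, and 1664, 1439 and 4712 in the replicates. No IDR summit followed over the next 20070 bp. Then 5 more lay within 12780 bp, from 510756 to 523536. Their ranks were 3430 at 510756, 1924 at 516232, 2796 at 520768, 2414 at 522158 and 4792 at 523536. The first 4 were intronic and in the high-signal list of all 3 replicates.

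The last, at 523536, lay 70 bp downstream of the third ush TSS and at -200 bp from the TSS at 523736. It was the weakest IDR summit of the 6 loci by pooled signal, with replicate ranks of 3355, 16010 and 4384. Replicate 2 stood apart here. Beyond it, the pooled list held weaker summits as far as 528667, which left 11893 bp up to the end of the gene without any.

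The start of the first ush transcript differed from the internal starts. Within 500 bp of the TSS at 476220 neither the IDR set nor the pooled list held a summit, and among the replicates only replicate 3 did, at rank 21696 and 71 bp downstream. At the second TSS all 3 replicates held a high-ranking summit, with ranks 1664, 1439 and 4712. At the 2 last TSSs, which lie close enough to share summits, the best ranks were 3355, 6652 and 4384. So the promoter binding counted for ush came from its internal promoters.

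**Figure D2:**
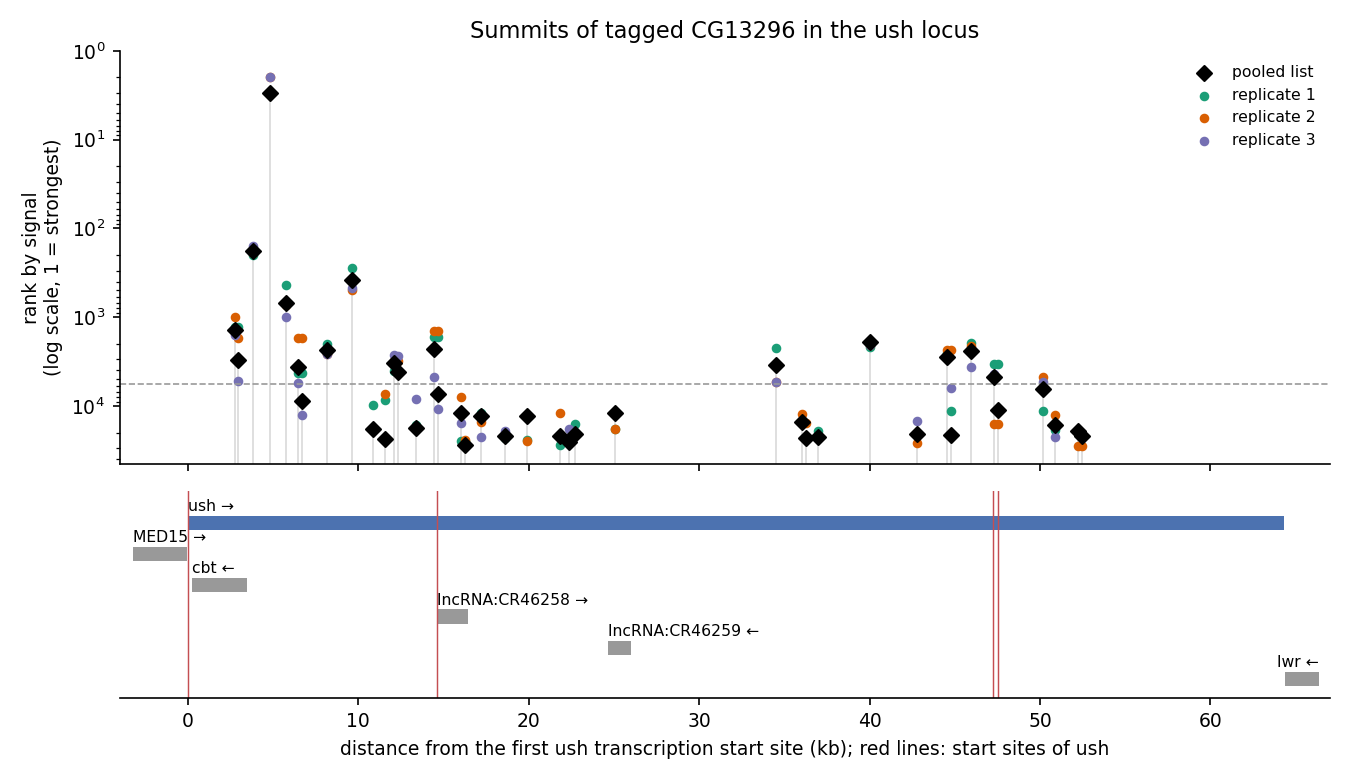
Rank by signal of each pooled summit in the ush locus (vertical axis, logarithmic, 1 is strongest) against distance from the first ush TSS in kb. Black diamonds are the pooled list, coloured points the ranks of the matching peak in each replicate, drawn at the pooled position, and the dashed line is rank 5724, above which lies the IDR set. The lower panel shows annotated genes with arrows for their direction, and red lines the 4 ush TSSs. The strongest summit lies 4836 bp from the first TSS, and the gap of 20070 bp without IDR summits lies between the second and the third TSS.

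Counted by locus, no other protein-coding gene held as many IDR summits as ush, which makes the share with at least 16 summits 0.00717% with ush included. The median gene held 0. The next genes were CHES-1-like and rdx with 14 each, and then Tlk, CG1677, Pdp1, bun, sbb and shn with 13 each. Of the protein-coding genes, 197 were longer than ush, and CHES-1-like spans 27048 bp. Per 10 kb, the ush locus held 2.34 IDR summits, against 0.428 over the 6 arms, and 5.85 pooled summits, against 2.24. The GATAd locus held 1.06 and 6.35 per 10 kb, the GATAe locus 0.713 and 4.99, and the srp locus 0.456 and 2.74. The grn locus held 0 and 1.84, and the pnr locus 0 of either kind. So the pooled density was higher at GATAd than at ush.

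The first place was lost when summits were left out for ush alone. With its 3 cbt summits left out, and none left out for other genes, 2 other genes held more than the remaining 13 and 6 held as many. Counting only summits farther than 500 bp from any TSS, ush held 13. Of the other genes named above, CHES-1-like and CG1677 came next with 12 each. With overlapping intervals merged, an alternative chosen after seeing the data, ush held 14 regions and no other gene as many. In the 5724 peaks of highest signal of each replicate, the ush locus held 14, 16 and 17 summits (15.7 ± 1.53, SD, n = 3). In replicate 1, 2 genes held more than ush and 2 as many. In replicate 2 no gene held more, and in replicate 3, 1 gene did. In the relaxed lists the ush locus held 38, 40 and 37 summits (38.3 ± 1.53).

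The ush summits recurred in the replicates. This is only a description, since the IDR threshold rests on replicate agreement and ush was chosen for its signal. All 16 IDR summits had a summit within 200 bp in the relaxed list of every replicate, and 15 were within the 5724 peaks of highest signal in all 3. Of all 5724 IDR summits, 5496 met the first criterion, so meeting it is common, and 63.4% met the second. Neighbouring ush summits shared some of their matching peaks, as given above, so the 15 are not independent of each other. For the 4 bound loci together, 17 of 19 met the second. The exceptions were the ush summit at 523536 and the GATAe summit, both below that rank in replicate 2. Of the 24 pooled ush summits below the IDR set, with ranks from 6427 to 27327, 10 were matched in all 3 relaxed lists and 5 in at least 1 high-signal list. In replicate 2 alone, a summit of rank 3208 lay at 540910, beyond the end of ush and within the neighbouring gene lwr, which encodes the SUMO-conjugating enzyme.

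The gene whose strongest locus summit had ranks most like those of ush was sought among 5326 genes, by the distance of the log10 ranks over the 3 replicates. CG11050 was nearest, at a distance of 0.391, with ranks of 2, 3 and 1. CG14100, CG9330 and ash1 followed at 0.634 through 1 summit that their loci share, with ranks of 4, 4 and 7. This likeness was measured in rank over 3 libraries only.

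GATAd (FBgn0032223) lies on 2L from 10333734 to 10339185 on the plus strand, spans 5452 bp and has 2 TSSs, at 10333734 and 10333914. Its IDR summit, at 10335134 in the interval 10335022 to 10335293, lay in an intron, 1400 and 1220 bp downstream of these TSSs. The summit ranked 550, and 649, 283 and 733 in the replicates (555 ± 239). All 3 values lay within the first 733 peaks of their list, which made it the highest-ranking site among the GATA factor genes. At the GATAd TSSs the pooled list held a summit of rank 6520, 12 bp downstream of the first, with replicate ranks of 5873, 3547 and 17181. Replicate 2 alone placed it among its 5724 peaks of highest signal. A further pooled summit of rank 6164 in the GATAd flank lay 30 bp downstream of the TSS of the next gene, SamDC, which encodes S-adenosylmethionine decarboxylase.

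srp, GATAe and pnr lie in this order on 3R within a stretch of 59645 bp with its flanks, which held 3 IDR summits and 14 pooled summits. The 3 replicates held 18, 19 and 13 summits there in their relaxed lists. All 3 IDR summits lay between the end of srp and the second GATAe TSS, and the pnr locus held none.

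srp (FBgn0003507) spans 17934 bp from 15986152 to 16004085 on the plus strand and has 4 TSSs. Its only IDR summit, at 16005279 (16005162 to 16005404), lay beyond its end, 19127 bp from its first TSS and within an exon of lncRNA:CR42839, a non-coding gene that runs the opposite way from 16004321 to 16008073. This summit ranked 1858, and 1766, 3083 and 1991 in the replicates (2280 ± 704). Without the flanks, the srp gene body held 0 IDR summits. At the 4 srp TSSs only the first had a pooled summit, of rank 26166, with a match in replicate 2 alone. Its strongest pooled summit within the gene, at 15993423, ranked 8374 and was matched at ranks 5107, 21020 and 13926. Only replicate 1 placed it among its 5724 peaks of highest signal.

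A second IDR summit in lncRNA:CR42839, at 16006138 (16006017 to 16006240), fell in an intron of it and outside both the srp and the GATAe locus. It ranked 1767, and 1299, 2143 and 2604 in the replicates. With a flank of 5 kb it counted for both neighbours, and the srp locus then held 2 IDR summits and the GATAe locus 3.

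GATAe (FBgn0038391) spans 10029 bp from 16009105 to 16019133 on the plus strand, with TSSs at 16009105 and 16012274. Its IDR summit lay in an intron, 2732 bp downstream of the first TSS and at -437 bp from the second. It ranked 2255 in the IDR set and 1517, 11919 and 2238 in the replicates (5225 ± 5809). Replicates 1 and 3 placed the summit high and replicate 2 did not, so the GATAe promoter call was lost among IDR summits supported by all 3 replicates. The call also depended on distance, and was lost with a limit of 250 bp. At the first GATAe TSS the pooled list held a summit of rank 16460 at 214 bp, and none was found there in replicate 3.

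Just outside the IDR set, a pooled summit of rank 5916 at 16008560 lay at -545 bp from the first GATAe TSS and at -487 bp from the lncRNA:CR42839 TSS, with replicate ranks of 4991, 12402 and 5763. Next were the SamDC summit in the GATAd flank at 6164, a ush summit at 526377 at 6427 and the GATAd promoter summit at 6520. Just inside lay the ush summit of rank 4792. These ranks set the counts at the threshold and carry no test.

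pnr (FBgn0003117) spans 15718 bp from 16026079 to 16041796 on the plus strand and has 3 TSSs. Neither the IDR set nor the pooled list held a summit in its locus, and replicate 1 held none in its relaxed list. Replicate 2 held 3, of which 1 of rank 8531 lay at -80 bp from the first TSS. Replicate 3 held 1, of rank 18193, in the flank beyond the gene. No position was shared by all replicates, and with the depth unknown the absence from the lists says only that no summit was listed.

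grn (FBgn0001138) spans 34077 bp from 8147368 to 8181444 on 3R, on the minus strand, with 1 TSS at 8181444. Its locus held 0 IDR summits and 7 pooled summits, and 10, 5 and 7 summits in the replicates. The strongest, at 8155921, lay 25523 bp downstream of the TSS at rank 7885 and was matched in replicates 1 and 3 at ranks 8083 and 7271. Another at 8176633, 4811 bp downstream, ranked 8097 and was matched in all 3, at ranks 11181, 10101 and 8607. Of the 7, 3 were matched in every replicate, and none was in any replicate's 5724 peaks of highest signal. A promoter summit was listed in replicates 1 and 2, at ranks 15245 and 6689 and at -56 and -110 bp, but not in replicate 3 or the pooled list.

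**Figure D3:**
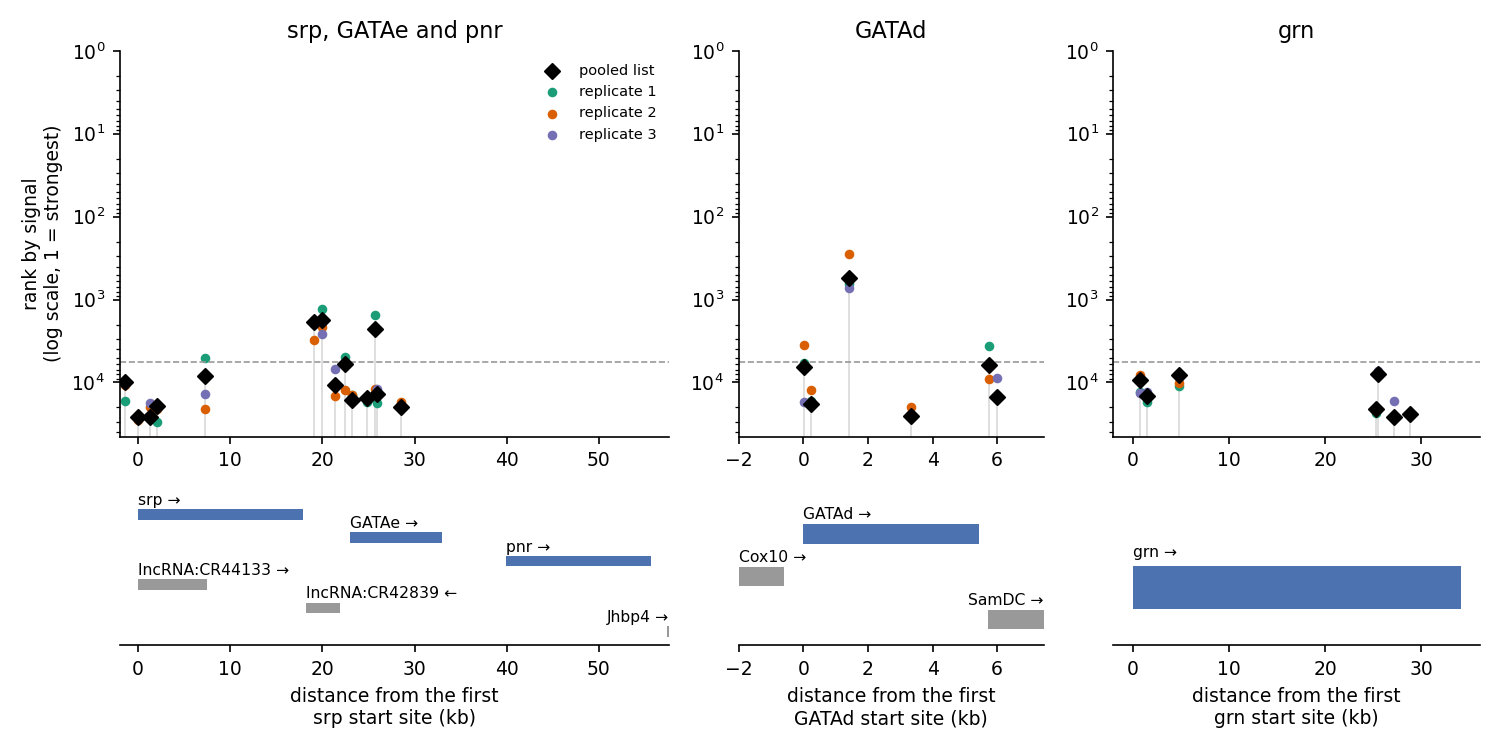
Rank by signal of each pooled summit (vertical axis, logarithmic, 1 is strongest) against distance in kb from the first TSS of srp (left, with GATAe and pnr), GATAd (middle) and grn (right, drawn in the direction of transcription). Diamonds are the pooled list, coloured points the matching peak of each replicate, and the dashed line is rank 5724. Summits found only in a replicate are not drawn, so pnr shows no points. The 3 summits above the line on the left, of ranks 1858, 1767 and 2255, lie between the end of srp and the second GATAe TSS.

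GATA sites were counted at the summits, since sequence was not used in choosing the genes. Over all 5724 IDR summits, 39.6% had a GATA site within 100 bp, against 31.2% of windows of the same width centred 500 bp to the right (odds ratio 1.46, exact 95% interval 1.35 to 1.58, two-sided exact McNemar test over summits, p = 6.87e-21 adjusted over the 3 GATA tests). Summits farther than 500 bp from a TSS had a site in 43.9% against 33.4% (odds ratio 1.59, 1.42 to 1.78, n = 2728, adjusted p = 9.55e-16). Promoter summits had one in 35.6% against 29.2% (odds ratio 1.35, 1.21 to 1.51, n = 2996, adjusted p = 9.47e-08). Windows around the TSSs of protein-coding genes held a site in 30.5% of 19252.

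The GC content moved with this comparison, with a median of 36.3% at summits and 42.3% in the control windows. Among pairs within 5 percentage points of GC, chosen after seeing the data, the two-sided exact test gave an odds ratio of 1.2 over all summits (adjusted p = 0.0237), 1.33 away from promoters (adjusted p = 0.0141) and 1.05 at promoters (adjusted p = 0.695). With control windows free of coding sequence, also chosen after seeing the data, the same exact test gave a promoter ratio of 1.02 (adjusted p = 0.829) and a distal ratio of 1.5 (adjusted p = 2.92e-11). The p-values measure the spread over summits and not over replicates. Some peak intervals overlap, with 5411 regions left after merging, so the summits are not all independent. The test was not run on merged regions.

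At the summits of the 6 loci, the share with a GATA site was close to that of all IDR summits. They lay within 100 bp of 7 of 19 IDR summits, or 36.8%, beside 39.6% of all IDR summits. In ush, 7 of 16 had one, and the single summits of srp and GATAd had none. The ush summits with ranks 3, 179 and 698 held no GATA site, and the window at 490686 held 2. Among the 47 pooled summits below the IDR set in these loci, 25 held a site, or 53.2%, beside 34.8% of all 24276 pooled summits below the IDR set. With so few summits, none of these shares was set against the others by a test.

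Other motifs were counted on both strands in the same windows. GAGAG, the core of the GAGA factor site, lay in 11 of 19, beside 24.6% of all IDR windows and 25.0% of TSS windows. These were 10 of 16 windows in ush and the 1 in srp, with none at GATAd or GATAe. The GAGAG matches overlap each other in repeats: the window at 490686 held 18 of them and that at 510756 held 10. The forkhead letters TGTTTAC or TGTTTAT lay in 4 of 19, beside 20.1% of all IDR windows and 13.1% of TSS windows. The window at 510756 held 2 of the forkhead matches. The E-box CAGCTG lay in 2 of 19, beside 10.2% and 13.4%. The DNA replication-related element TATCGATA lay in 0 of 19, beside 3.13% and 6.45%. It has a C before its GATA letters, so it holds no GATA site as defined above. No test was made on these 19 windows, some of which lie next to each other.

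**Figure D4:**
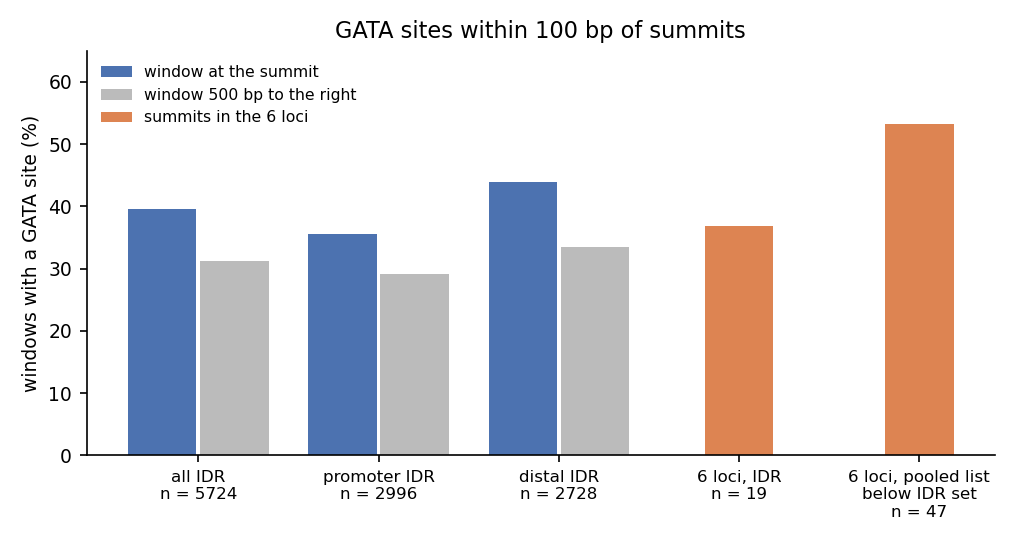
Share of windows within 100 bp of a summit that hold a GATA site (vertical axis, percent, from 0). Blue bars are IDR summits, grey bars the windows centred 500 bp to their right, and orange bars the summits in the 6 loci, in the IDR set and in the pooled list below it, with the number of summits under each bar. The 19 IDR summits of the 6 loci, at 36.8%, lie between the promoter and distal IDR summits.

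Genes of the processes in which GATA factors and Ush act were described in the same way, with lists chosen when earlier results of these data were known. Of 14 blood cell genes, 0 had an IDR summit within 500 bp of a TSS, beside 23.3% of protein-coding genes. A count of 0 allows a share of up to about 21.4%, and the exact 95% interval reaches 23.2%. The list was chosen with results known, so neither limit tests a difference from all protein-coding genes. The replicates gave 1, 1 and 0 genes. In the locus, 3 of 14 held an IDR summit, against 40.1%, and the best was of rank 743 in zfh1, which encodes a zinc-finger and homeodomain repressor. The best summits in the gcm2 and Pxn loci lay at promoters of neighbours, Trx2 for gcm2 and CG42245 and MEP-1 for Pxn. The median number of IDR summits per locus was 0, as over all protein-coding genes.

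Of 12 heart and dorsal mesoderm genes, 2 had a promoter summit, or 16.7%, beside 23.3% of protein-coding genes. The count was the same in each replicate. tin, the homeobox gene needed for the heart, had one at -180 bp of rank 544, with replicate ranks of 552, 438 and 643. Mef2, which encodes a muscle transcription factor, had one at 90 bp of rank 2950, with 2820, 2504 and 2866. In the locus, 6 of 12 held a summit, against 40.1% of protein-coding genes, with a median of 0.5 per gene. Mef2 alone held 8, the best of rank 14 at the promoters of its neighbours Pal1 and Pdrg1. The best summits in the Hand and tup loci also lay at promoters of neighbours, Ufd4 for Hand and CG10602 for tup. Of 7 endoderm and gut genes, 2 had a promoter summit, or 28.6%, beside 23.3%. In the locus, 2 of 7 held a summit, against 40.1%. fkh, a forkhead gene needed for the foregut and hindgut, had one at -238 bp of rank 141, with 84, 185 and 231. cad, a homeobox gene of the posterior gut, had one at -188 bp of rank 4986, with 3588, 5491 and 8317. The count of 2 genes with a promoter summit was 1 in replicate 3.

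Of 11 bristle and dorsal thorax genes, 1 had a promoter summit, or 9.09%, beside 23.3% of protein-coding genes. It was emc, which encodes an inhibitor of proneural factors, at 21 bp and rank 1965. In the locus, 2 of 11 held a summit, against 40.1%, with Bx holding 3. The proneural genes ac, sc, ase and l(1)sc held 0, as did every other gene of this list apart from emc and Bx. Of 7 genes for corepressor proteins, 3 had a promoter summit, simj, MTA1-like and MBD-like, or 42.9%, beside 23.3%. The 7 encode CtBP and subunits of the NuRD complex, proteins of the kind that Friend of GATA cofactors bind. All 7 held at least 1 IDR summit in the locus, with a median of 2, against 40.1% of protein-coding genes with any.

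Among the 3 corepressor genes with a promoter summit, 2 shared the one of highest signal with a neighbouring gene. The simj summit at 26 bp ranked 2651, with 2985, 1482 and 4230, and its locus held 9 IDR summits with the best at rank 74. MTA1-like had 2 promoter summits, and the one of highest signal, at -59 bp, ranked 3071 and is also a promoter summit of Sec23. The MBD-like summit at -87 bp ranked 3964 and is also a promoter summit of AP-1mu, and it ranked 7368 in replicate 1. The best summit in the locus of Caf1-55, of rank 15, lay at the promoters of its neighbours Art3 and mRpS10. With 7 to 14 genes a list and members chosen with results known, no test was made of these shares. The genes zfh1, gcm2, Pxn, Hand, tup, Bx and Caf1-55, the proneural genes, SamDC and lwr, and those set beside ush for their number of summits, were singled out after their values were seen.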

How the data were processed

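Binding of GFP-tagged CG13296 was measured by ChIP-seq in 3 biological replicates of 1 group. The authors deposited a relaxed list of 30000 peaks for each replicate, another for the pooled replicates, and an IDR set of 5724 peaks, which were the 5724 pooled peaks of highest signal. Per the deposited derivation records, coordinates are on dm6. Aligner, peak caller, IDR threshold and numbers of reads are not given in the sources used here. Peaks were ranked, always within 1 list, on the signal column that the authors deposited, whose scale is not stated. Their deposited −log10 q-value equalled 4.08 in the whole IDR set and gave no ranking. Each summit is the interval start plus the deposited offset. Summits within an interval were counted separately. The sequence at the GATAe summit is not reported here.

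The members, lists, motifs and tests were chosen with earlier results of these data known. Genes and TSSs came from Ensembl 115 (BDGP 6.54) and sequence from NCBI release 6, in which 99.8% of 30593 annotated start codons read ATG. A replicate matched a summit when it had a summit within 200 bp, the one of highest signal being taken, so neighbouring summits can share a match. High-signal lists are the 5724 top peaks of each replicate. Named genes were the 6 members, genes at their IDR summits, the genes nearest ush in replicate rank, and up to 3 genes per list with a promoter IDR summit of highest signal. Other genes named were chosen after their values were seen. GATA sites were compared by the two-sided exact McNemar test with Benjamini-Hochberg adjustment over 3 tests and a threshold of 0.05. The comparison was also run on simulated windows. These had the same base composition at summits and controls, so they could not show effects of the GC difference in the data. The upper limit of 21.4% given for a count of 0 is 3 counts over the number of genes. Like the exact interval beside it, it covers counting error only. With each replicate left out in turn, the IDR set was reduced to peaks matched in both remaining high-signal lists, which left 4088 without replicate 1, 4197 without replicate 2 and 4081 without replicate 3. Python 3.11.15, numpy 2.4.6, pandas 2.3.3, scipy 1.17.1 and matplotlib 3.10.9 were used.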

Additional observations from a re-analysis of the deposited data

How the results depend on the processing

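The number of genes with an IDR summit at a TSS, 2 of 6, changed with several settings. It was 1 with a distance of 250 bp, 0 with only the TSS at the 5′ end of each gene, 1 among the IDR peaks supported in all 3 replicates, and 1 to 2 with each replicate left out, falling to 1 without replicate 1 and without replicate 3, when GATAe was lost. Genes with an IDR summit in the locus numbered 3 to 4 with each replicate left out, and the summits 17 to 19. The strongest ush summit ranked 2 in the lists of replicates 2 and 3. For GATA sites, the odds ratio with each replicate left out was 1.41 to 1.5 over all IDR summits, 1.26 to 1.39 at promoters and 1.59 to 1.66 away from them. At promoters alone it fell below the threshold, at 1.02 with control windows free of coding sequence and 1.05 with pairs within 5 percentage points of GC, and the cause was not tested. Those settings kept 1746 and 734 promoter pairs of 2996. Over all 13 settings the ratios were 1.2 to 1.51, 1.02 to 1.48 and 1.33 to 1.66 for all, promoter and distal summits, and the adjusted exact McNemar p-values ran from 1.87e-24 to 0.0237, from 2.79e-13 to 0.829 and from 3.06e-18 to 0.0141. Ranking by p-value was not run because the deposited column holds no values. No paired analysis was possible because there is 1 group. Unknown depth limits what the absence of summits at pnr and grn can show.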
